A study of Mus musculus with 10 samples.

Results

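The genes described here are 10 components of the Notch pathway: the receptor genes Notch1, Notch2, Notch3 and Notch4, the ligand genes Jag1, Jag2 and Dll1, the target genes Hes1 and Hey1, and Rbpj, which encodes the DNA-binding factor of the pathway. They were taken from the expression table by gene symbol, and all 10 were found among its 54343 genes. The study sequenced polyA RNA from 2 cultured mouse tumour lines, with 5 libraries of parental MC38, labelled wild type, and 5 of its derivative MC38.T4, labelled as low in mesothelin. MC38 was bought from a vendor. MC38.T4 descends from a sorted MC38 clone transfected with a human mesothelin vector (MC38.huMSLN.34), grown as a tumour in C57/BL6 mice for about 25 days, passaged in culture for 10 generations and kept as a single clone with low mesothelin. The transgene, the passage through a mouse and the cloning thus differ between the lines together and cannot be told apart, and both lines were cultured in the same medium with serum. Nothing in the labels tells whether libraries of 1 line were grown as separate cultures. The p-values then measure just the spread among these libraries, which may be technical.

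Notch receptors are single-pass membrane proteins that are activated by ligands of the Jagged and Delta-like families on a neighbouring cell. Ligand binding exposes the receptor to an ADAM protease and then to gamma-secretase, which frees the intracellular domain. In the nucleus this domain joins the DNA-binding protein RBPJ and a Mastermind coactivator and switches on targets such as the Hes and Hey repressor genes, while RBPJ without it recruits corepressors. Notch signalling is known in the intestine for keeping progenitor cells undifferentiated and is altered in many tumours.

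RefSeq promoter sequences (build GRCm38.p6) were available for 8 of the 10 genes, Hes1 and Hey1 being those without an entry. They were searched for TGGGAA on both strands, the core that RBPJ is known to bind. Shown here are the 250 bases before the start of Rbpj and Jag1, which fell, and of Notch2, the most abundant receptor gene; TGGGAA or its reverse complement is in capitals.

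Rbpj, chr5:53590096-53590345, plus strand: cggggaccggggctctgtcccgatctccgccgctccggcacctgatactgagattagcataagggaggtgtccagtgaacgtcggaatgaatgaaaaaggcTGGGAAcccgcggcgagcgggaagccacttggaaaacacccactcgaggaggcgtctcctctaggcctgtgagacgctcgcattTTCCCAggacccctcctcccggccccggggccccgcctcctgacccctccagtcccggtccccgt
Jag1, chr2:137116521-137116770, minus strand: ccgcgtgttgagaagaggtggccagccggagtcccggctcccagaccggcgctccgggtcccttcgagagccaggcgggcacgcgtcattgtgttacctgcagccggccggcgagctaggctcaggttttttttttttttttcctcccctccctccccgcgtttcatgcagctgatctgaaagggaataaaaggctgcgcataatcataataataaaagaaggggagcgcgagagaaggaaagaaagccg
Notch2, chr3:98013288-98013537, plus strand: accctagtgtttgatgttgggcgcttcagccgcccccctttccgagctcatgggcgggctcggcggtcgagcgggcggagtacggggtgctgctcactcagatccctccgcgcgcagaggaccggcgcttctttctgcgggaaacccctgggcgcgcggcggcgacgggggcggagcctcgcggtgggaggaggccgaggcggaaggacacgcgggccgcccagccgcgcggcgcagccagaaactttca

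The printed Rbpj window held 2 matches, whose first bases lay 149 and 65 bases before the start. Another Rbpj window, chr5:53590236-53590485, belongs to a start further downstream and held 1 match, 205 bases before that start. This is the same TTCCCA as in the printed window, so the count depends on the start used. None of the other 7 genes with an entry held these letters in any of their windows, a statement on these windows only. Over all 32851 windows of this length in the table, 21.6% held at least 1 match and 2.77% held 2 or more. The GC content of the printed windows was 65.2% for Rbpj, 57.2% for Jag1 and 72.0% for Notch2, against a median of 52.4% over all windows.

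Expression is given as FPKM, a fragment count scaled by gene length and by library depth, so that levels of different genes can be compared. Library sums of FPKM ran from 442183 to 484460, with 10723 to 10938 genes at 1 FPKM or more. Read totals were not used here. The spacing of low values gave depths between 0.874 and 1.14 times that of MC38 replicate 1, and no counting interval was attached to a value. The lowest FPKM sum was that of MC38 replicate 1, which with a median correlation of 0.994 also stood farthest from its own line, as MC38.T4 replicate 4 did in its line (0.995). Tested were the 11110 genes that reached 1 FPKM in 5 or more libraries, and a call is an adjusted p under 0.05 from limma on log2(FPKM + 1), with Benjamini-Hochberg adjustment over all of them. The lines differed broadly: 86.0% of tested genes were called, 43.1% higher and 42.9% lower in MC38.T4, 17.2% were called with a change of at least 2-fold, and the libraries of the lines did not overlap for 77.4%.

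Of the markers listed for other cell types, Tyr (melanocytes), Cd3e, Cd8a and Ncr1 (lymphocytes) and Adgre1 (macrophages) were listed at 0 in all 10 libraries. The epithelial marker Epcam was listed at 0 in 9 libraries and at 0.0168 FPKM in the other. The labels name melanoma and colon carcinoma as tumour types. Tyr and Epcam are each 1 of 5 markers listed, and other melanocyte and epithelial markers were detected. The sum of 5 melanocyte markers was 1.19 to 1.51 FPKM in MC38 and 1.85 to 2.06 in MC38.T4. Within it Mitf, which other cell types also express, was called higher (0.781 and 1.74 FPKM), while Pmel stood lower with no overlap (0.522 and 0.178 FPKM). The sum of 5 myeloid markers was 2.64 to 3.48 FPKM in MC38 and 1.73 to 3.03 in MC38.T4. It was mostly Cd68, which was called lower, with overlapping libraries. Ptprc, at no more than 0.042 FPKM, stood lower in MC38.T4 and Csf1r, at no more than 0.028 FPKM, higher, both with no overlap. Itgam stood at no more than 0.0246 FPKM, with overlapping libraries. All 5 markers of fibroblasts and pericytes were tested and called higher in MC38.T4, as were 43.1% of all tested genes. Their summed FPKM was 33.8 to 36.7 in MC38 and 108 to 117 in MC38.T4. Among the 5, Cspg4 changed least, from 5.58 to 6.61 FPKM, with overlapping libraries. The sum of 5 epithelial markers was 0.0397 to 0.0796 FPKM in MC38 and 1.06 to 1.34 in MC38.T4, in MC38.T4 mostly Cdh1. All 5 lay below the level limit. Cdh1 (0.0212 and 1.00 FPKM) and Krt8 (0.0118 and 0.187 FPKM) stood higher in MC38.T4 with no overlap. Epcam, Krt18 and Vil1 stood at no more than 0.0665 FPKM, with overlapping libraries. The sum of 5 endothelial markers was 0.388 to 0.517 and 0.889 to 1.03 FPKM, a difference that lay mostly in Pecam1. The part of these markers in the values of the Notch genes was not tested. In bulk RNA, fewer cells of a type and less RNA per cell cannot be told apart.

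Of the 10 genes, 5 passed the level limit, each with an FPKM above 1 in all 10 libraries, and all 5 were called: Notch1, Notch2 and Hes1 were higher in MC38.T4, and Jag1 and Rbpj were lower. With 86.0% of all tested genes called, 5 calls among 5 tested genes is near the background. For Hes1, Jag1 and Rbpj the change was at least 2-fold, against 17.2% of tested genes. Notch3, Notch4, Jag2, Dll1 and Hey1 lay below the limit, at no more than 0.387 FPKM in any library, and are given from a fit without the limit.

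**Figure D1:**
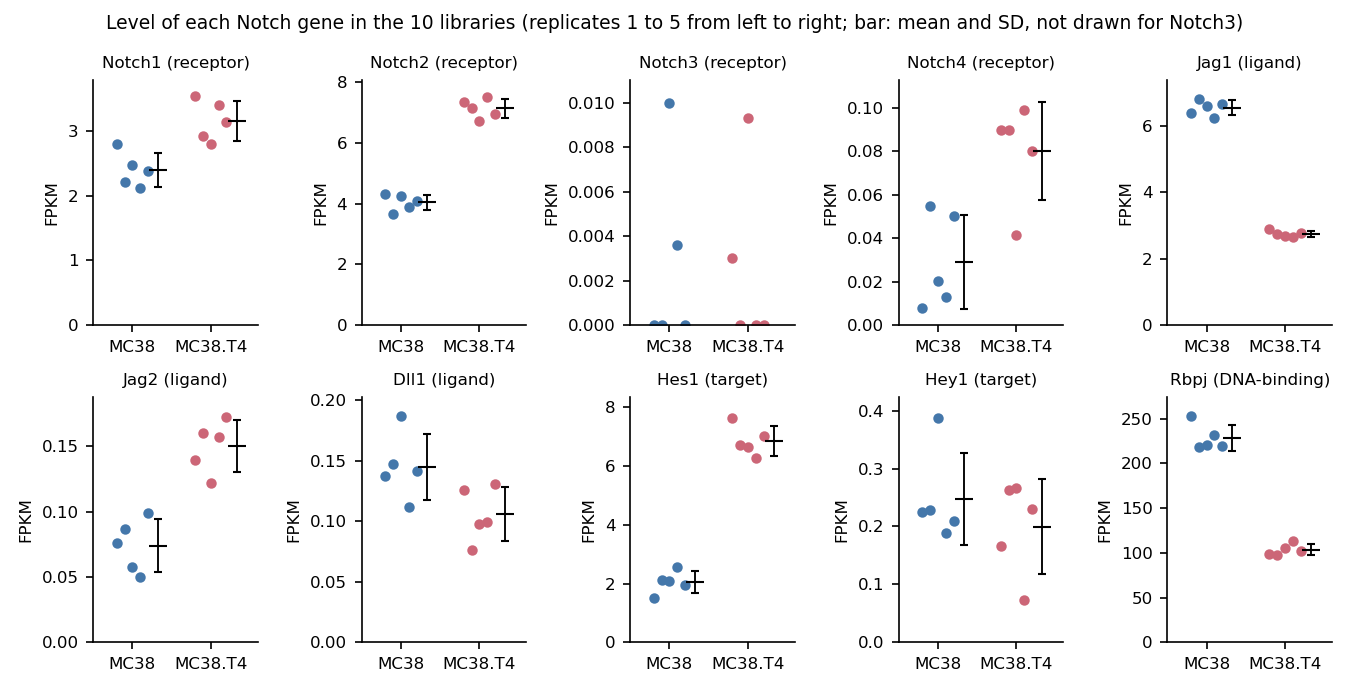
FPKM of each of the 10 Notch genes in the 5 MC38 libraries (blue) and the 5 MC38.T4 libraries (red), each panel with its own axis from 0; black bars are the mean and SD of a line and are left out for Notch3, which is listed at 0 in 6 libraries. The libraries of the lines do not overlap for Notch1, Notch2, Jag1, Jag2, Hes1 and Rbpj, and overlap for Notch3, Notch4, Dll1 and Hey1. They do not overlap for 77.4% of all tested genes and for 41.0% of genes in the fit without a level limit.

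Among the receptors, Notch2 was the most abundant in both lines and had the largest rise on the log2(FPKM + 1) scale. Its FPKM was 4.31, 3.68, 4.24, 3.91 and 4.08 in MC38 replicates 1 to 5 and 7.35, 7.15, 6.74, 7.50 and 6.96 in MC38.T4 replicates 1 to 5. Every MC38.T4 library lay above every MC38 library, with a gap wider than the range within either line. The means were 4.04 ± 0.26 and 7.14 ± 0.30 FPKM (SD, n = 5 each), a 1.77-fold rise and a log2 change of 0.69 (SE 0.05, 95% interval 0.59 to 0.79, limma adjusted p = 1.3e-09). This change was larger than that of 67.6% of tested genes.

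Notch1, the receptor best known from T cell leukaemia and from intestinal progenitors, rose less. Its FPKM was 2.80, 2.21, 2.48, 2.12 and 2.38 in the MC38 libraries and 3.54, 2.93, 2.80, 3.40 and 3.14 in the MC38.T4 libraries. The groups only just failed to overlap, since the highest MC38 library, replicate 1, stood at 2.798 FPKM and the lowest MC38.T4 library, replicate 3, at 2.799. The mean went from 2.40 ± 0.27 to 3.16 ± 0.31 FPKM (SD, n = 5 each), a 1.32-fold rise and a log2 change of 0.29 (SE 0.06, 95% interval 0.16 to 0.43, limma adjusted p = 0.00057). That change was smaller than the median size over all tested genes, 0.47 on the log2(FPKM + 1) scale. This scale shrinks changes of scarcer genes more, which also bears on the shares of tested genes given for the changes of Notch2, Hes1 and Rbpj. The log2 change of Notch1 ranged from 0.16 with quantile normalization to 0.39 with a pseudocount of 0.1, and the call held in each alternative in which it was tested.

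Notch4, a receptor known from the vascular endothelium, was near the floor of detection. It stood at 0.0079, 0.0546, 0.0203, 0.0130 and 0.050 FPKM in MC38 and at 0.0899, 0.0896, 0.0416, 0.0991 and 0.0801 in MC38.T4. Of the MC38.T4 libraries only replicate 3 fell within the MC38 range. In the fit without a level limit, where 47.8% of 26597 genes were called, it was called higher (2.75-fold on the FPKM scale, log2 change 0.07, SE 0.02, limma adjusted p = 0.0102). That call was lost without MC38 replicate 1 and MC38.T4 replicate 4 together (adjusted p = 0.0591) and after a shift to equal medians (adjusted p = 0.119). Of 5 endothelial markers, Pecam1 was higher as well, at 0.0404 ± 0.029 and 0.529 ± 0.054 FPKM (SD, n = 5 each), and so was Cdh5, at no more than 0.0661 FPKM. Eng stood at 0.405 and 0.400 FPKM and Tek at 0.0138 and 0.0056 FPKM, both with overlapping libraries, and Kdr was lower, at 0.0190 and 0.0010 FPKM. The part of endothelial genes in the Notch4 values was not tested.

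Notch3, known from mural cells of vessels, was listed at 0 in 3 MC38 and 3 MC38.T4 libraries. Its other values were 0.0100 FPKM in MC38 replicate 3, 0.0036 in MC38 replicate 4, 0.0030 in MC38.T4 replicate 1 and 0.0093 in MC38.T4 replicate 3. Notch3 was thus at the edge of detection in both lines. Pdgfrb, a marker of fibroblasts and mural cells, stood at 0.191 ± 0.035 FPKM for MC38 and 19.2 ± 0.89 FPKM for MC38.T4 (SD, n = 5 each). The log2 difference of Notch3 was -0.00037 (SE 0.0055, limma adjusted p = 0.968 without a level limit).

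The depth behind the low values can be read from their spacing, since scaled by relative depth each gene's values fell within 0.1 of whole multiples of 1 step. If whole fragments were counted, the fewest that give these values sum to 4 fragments in each line for Notch3. The same sum was 36 in MC38 and 102 in MC38.T4 for Notch4, 97 and 73 for Dll1, 71 and 148 for Jag2, and 112 and 96 for Hey1. A single library held between 2 and 13 steps of Notch4 in MC38 and between 11 and 26 in MC38.T4, so its values carry large counting error.

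Jag1, which encodes the ligand Jagged1, was the main ligand of the 3 in both lines and fell. The MC38 libraries held 6.40, 6.82, 6.61, 6.25 and 6.65 FPKM of Jag1, and the MC38.T4 libraries 2.90, 2.75, 2.68, 2.65 and 2.77 FPKM. The libraries of a line lay close together and far from those of the other line. The mean fell from 6.55 ± 0.22 to 2.75 ± 0.097 FPKM (SD, n = 5 each), 2.38-fold on the FPKM scale, with a log2 change of -1.01 (SE 0.04, 95% interval -1.10 to -0.92, limma adjusted p = 3.2e-12). The interval spans the 2-fold limit on the log2(FPKM + 1) scale. The log2 change was -0.996 without MC38 replicate 2 and -0.999 without MC38.T4 replicate 4, and each of these leaves 2 of the 10 genes, Hes1 and Rbpj, past that limit.

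The other ligands were scarce. Jag2, which encodes Jagged2, stood at 0.0762, 0.0867, 0.0577, 0.0503 and 0.0992 FPKM in MC38 and at 0.139, 0.160, 0.122, 0.157 and 0.172 in MC38.T4, with no overlap between the lines. It was called higher in the fit without a level limit (2.03-fold on the FPKM scale, log2 change 0.10, SE 0.02, limma adjusted p = 0.0023), in which the libraries of the lines did not overlap for 41.0% of genes. Dll1, a Delta-like ligand, stood at 0.138, 0.147, 0.187, 0.112 and 0.141 FPKM in MC38 and at 0.126, 0.0761, 0.0973, 0.0995 and 0.131 in MC38.T4. These values overlapped, and the log2 difference of -0.05 (SE 0.02, 95% interval -0.10 to 0.0035) was not called (limma adjusted p = 0.12). It was called lower with quantile normalization (adjusted p = 0.0125) and after a shift to equal medians (adjusted p = 0.0309).

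Summed over genes, receptor transcripts were higher and ligand transcripts lower in every MC38.T4 library than in any MC38 library. The 4 receptors summed to 6.47 ± 0.49 FPKM for MC38 and 10.4 ± 0.60 FPKM for MC38.T4, and the 3 ligands to 6.77 ± 0.25 and 3.01 ± 0.11 FPKM (SD, n = 5 each). The ratio of summed ligand to summed receptor FPKM lay between 0.93 and 1.19 in the MC38 libraries and between 0.264 and 0.302 in the MC38.T4 libraries. Notch2 made up 60.6% to 64.7% of the receptor sum in MC38 and 66.9% to 70.3% in MC38.T4. Jag1 made up 96.4% to 97.5% of the ligand sum in MC38 and 90.1% to 92.4% in MC38.T4. These sums follow from the genes already given and have no test of their own.

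**Figure D2:**
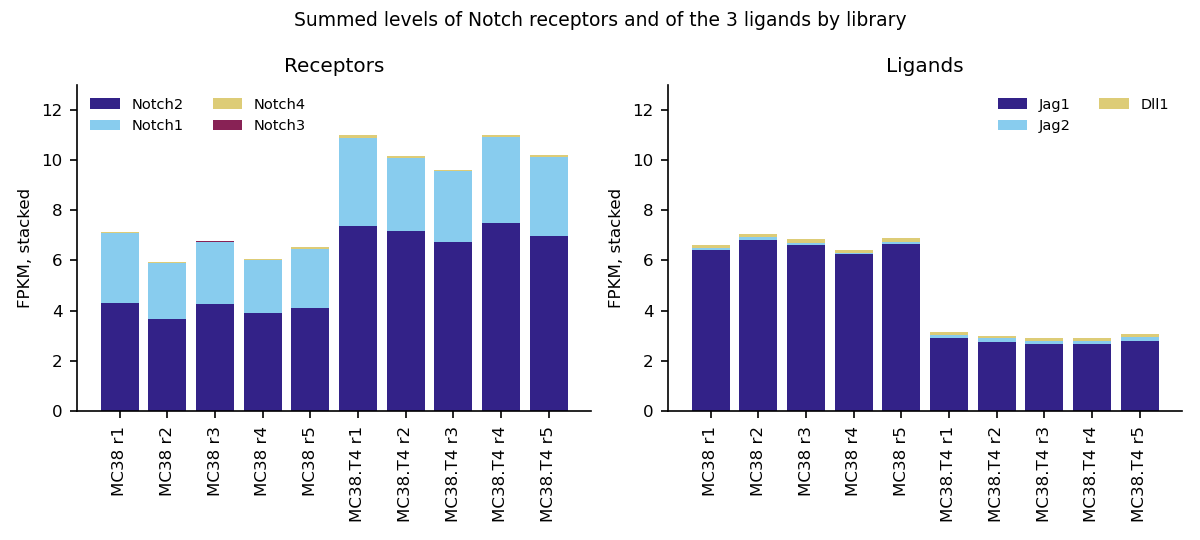
FPKM of the 4 receptors (left) and the 3 ligands (right), stacked by gene for each of the 10 libraries (r1 to r5 are replicates). The receptor bars end between 5.94 and 7.12 FPKM in MC38 and between 9.59 and 11.0 in MC38.T4, and the ligand bars between 6.41 and 7.06 in MC38 and between 2.90 and 3.16 in MC38.T4.

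Hes1, a repressor gene that is a direct target of Notch in many tissues and also answers to other signals, had the largest change of the 5 tested genes. The MC38 libraries held 1.52, 2.11, 2.08, 2.57 and 1.95 FPKM of Hes1, and the MC38.T4 libraries 7.62, 6.70, 6.63, 6.27 and 6.99 FPKM. The gap between the lines was wider than the range within either. The mean rose from 2.05 ± 0.38 to 6.84 ± 0.51 FPKM (SD, n = 5 each), 3.34-fold, with a log2 change of 1.37 (SE 0.08, 95% interval 1.21 to 1.54, limma adjusted p = 2.3e-10). This was larger than the change of 92.1% of tested genes, and it ranged from 1.27 to 1.71 over the alternatives. Within MC38, replicate 1 held the lowest Hes1 and the highest Notch1, Notch2 and Rbpj.

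Hey1, the other target gene and also a repressor, was scarce and was not called. It stood at 0.225, 0.228, 0.387, 0.189 and 0.209 FPKM in MC38 and at 0.166, 0.263, 0.267, 0.0735 and 0.230 in MC38.T4. The values overlapped widely, with the highest in MC38 replicate 3 and the lowest in MC38.T4 replicate 4. The log2 difference was -0.06 (SE 0.06, 95% interval -0.18 to 0.069, limma adjusted p = 0.453), and it was not called in any of 17 alternatives. With a pseudocount of 0.1, which shrinks low values less, the difference was -0.24 (SE 0.23). Whether the changes of Hes1 and Hey1 differ was not tested.

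Rbpj was by far the most abundant of the 10 genes and fell. The MC38 libraries held 253, 218, 221, 232 and 219 FPKM of Rbpj, and the MC38.T4 libraries 99.1, 98.1, 105, 114 and 103 FPKM. The lowest MC38 library stood at 218.2 FPKM and the highest MC38.T4 library at 113.6. The mean fell from 228.7 ± 15 to 103.8 ± 6.2 FPKM (SD, n = 5 each), 2.20-fold, with a log2 change of -1.13 (SE 0.05, 95% interval -1.24 to -1.03, limma adjusted p = 7.7e-12). This change was larger than that of 87.1% of tested genes. Even at the lower level, Rbpj in MC38.T4 stood above 93.5% of tested genes, against 97.4% in MC38, while Notch1, Notch2, Jag1 and Hes1 each stood above 11.2% to 32.6% of them in either line. The ratio of Rbpj FPKM to the summed receptor FPKM was 35.4 ± 2.3 for MC38 and 10.01 ± 0.73 for MC38.T4 (SD, n = 5 each).

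Processed pseudogenes of Rbpj can share its reads, and the authors' handling of shared reads is not known here. The row Rbpj-ps3 lay between 0.387 and 3.25 FPKM in MC38, highest in replicate 1, and between 0.0863 and 0.516 in MC38.T4. Rbpj-ps1 and the related gene Rbpjl were listed at 0 in all 10 libraries. The 3 rows were chosen after their values were seen.

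For each of Notch1, Notch2, Jag1, Jag2, Hes1 and Rbpj, an exact permutation test of the log2 values over all assignments of 5 libraries gave p = 0.00794 (two-sided), the smallest that 5 libraries against 5 allow. Every gene whose lines do not overlap reaches this value, as 77.4% of tested genes and 41.0% of genes without a level limit do not overlap. The same exact test gave p = 0.0238 for Notch4, 0.0397 for Dll1, 0.413 for Hey1 and 0.841 for Notch3. These 10 exact p-values are not adjusted for each other.

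**Figure D3:**
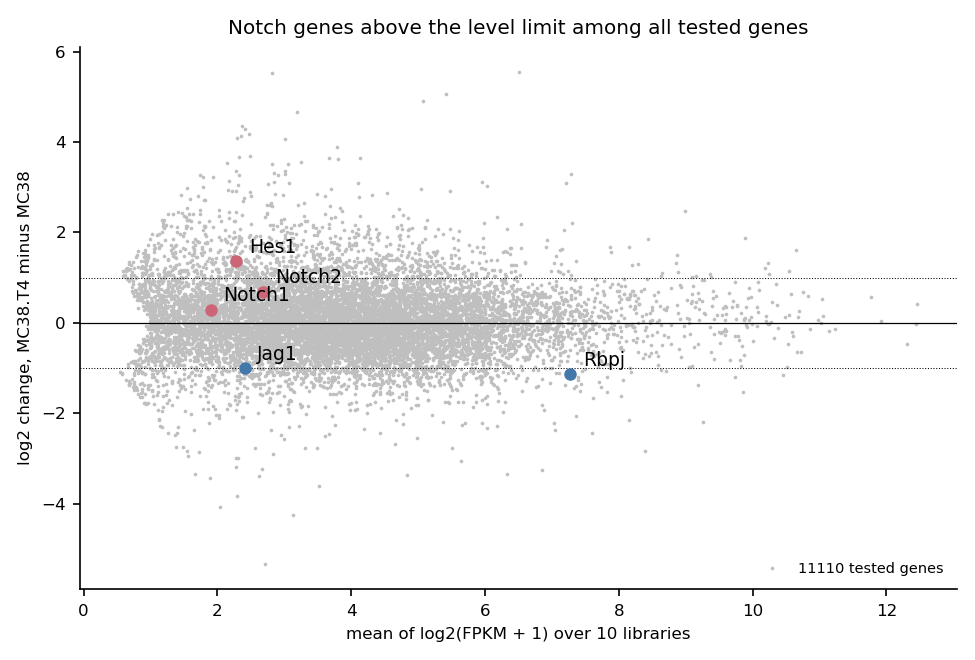
Log2 change (MC38.T4 minus MC38) against the mean of log2(FPKM + 1) over the 10 libraries for the 11110 tested genes (grey), with the 5 tested Notch genes in red (higher in MC38.T4) and blue (lower); bars are SE, mostly smaller than the symbols, and dotted lines mark 2-fold. Hes1 (1.37), Rbpj (-1.13) and Jag1 (-1.01) lie at or beyond the dotted lines, and Notch2 (0.69) and Notch1 (0.29) between them.

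The order of the levels changed between the lines. In MC38 it ran Rbpj, Jag1, Notch2, Notch1, Hes1, Hey1, Dll1, Jag2, Notch4 and Notch3, and the ranges of neighbours overlapped for Notch1 and Hes1, for Jag2 and Notch4, and for Notch4 and Notch3. In MC38.T4 it ran Rbpj, Notch2, Hes1, Notch1, Jag1, Hey1, Jag2, Dll1, Notch4 and Notch3. There the ranges overlapped for Notch2 and Hes1, for Notch1 and Jag1, and for each neighbouring pair from Hey1 to Notch4. Jag1 went from rank 2 to rank 5 in this order and Hes1 from rank 5 to rank 3.

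Tested genes with a mean FPKM of at least 5, without gene models named Gm or Rik, were ranked by their Pearson r with Hes1 over the 10 libraries. The highest positive values were those of Btf3l4 (r = 0.997), Ndc80 (0.995) and Kif22 (0.995). Ndc80 encodes a kinetochore protein and Kif22 a chromosome-bound kinesin. The correlation of their deviations from the line means with those of Hes1 was 0.914 for Btf3l4, 0.854 for Ndc80 and 0.854 for Kif22. The points share the 2 lines, and 47.0% of tested genes reached a size of 0.95 with Hes1 over the 10 libraries, so these values are a description only.

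The wider pathway was described from 62 further genes in 7 role lists, of which 45 passed the level limit. Of these, 14 were higher and 21 lower in MC38.T4 and 10 were not called, so that 77.8% were called against 86.0% of all tested genes. The median log2 change was -0.05, against 0.00077 over all tested genes, and the median size of the change 0.51 against 0.47. The genes of the wider pathway thus moved both ways.

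Sugars added to the EGF-like repeats of Notch set how the receptors respond to ligands. Of 7 tested genes for these enzymes 5 rose, 1 fell and 1, Eogt, was not called, so that 85.7% were called against 86.0% of all tested genes. Pofut1, the O-fucosyltransferase of Notch, rose from 12.2 ± 0.28 to 20.5 ± 0.84 FPKM and the xylosyltransferase gene Gxylt2 from 7.20 ± 0.29 to 13.3 ± 0.80 FPKM (SD, n = 5 each). Gxylt1, a close relative with the same activity, fell from 39.2 ± 5.9 to 25.4 ± 0.92 FPKM, and MC38 replicate 1 stood apart at 49.5 FPKM. Of the fringe genes, which extend the fucose, Rfng rose from 8.36 ± 0.82 to 12.5 ± 0.52 FPKM, and Lfng and Mfng lay below the level limit.

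Of 8 tested genes for receptor cleavage 2 rose, 5 fell and 1 was not called. The share called was 87.5%, near the 86.0% of all tested genes, and genes of gamma-secretase went both ways. Furin, the protease that cuts the receptor on its way to the surface, fell from 28.2 ± 0.83 to 17.6 ± 0.60 FPKM and Psen2, a gene of the gamma-secretase complex, from 8.60 ± 0.37 to 5.18 ± 0.57 FPKM (SD, n = 5 each). Aph1b and Psenen fell as well. Ncstn, the nicastrin subunit, rose from 28.3 ± 1.0 to 41.7 ± 0.82 FPKM and Aph1a from 12.7 ± 0.68 to 17.2 ± 0.95 FPKM. Adam10, the protease of ligand-dependent cleavage, stood at 38.5 ± 3.6 and 37.8 ± 1.5 FPKM and was not called (log2 difference -0.02, 95% interval -0.14 to 0.095, limma adjusted p = 0.73), while Adam17 fell from 72.9 to 55.9 FPKM. Aph1b and Aph1c are near-identical copies, so their separate values are uncertain.

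Of 12 tested genes for ligand endocytosis and receptor turnover, 2 rose, 4 fell and 6 were not called. The share called was 50%, against 86.0% of all tested genes. Mib1, the ubiquitin ligase that ligands need, was not called and was spread widely in MC38, with 31.5 FPKM in replicate 1 and 18.8 to 23.1 in the other MC38 libraries. Dtx3l, a member of the Deltex family also known from the interferon response, rose from 3.88 ± 0.18 to 13.98 ± 0.47 FPKM, and Neurl1b from 1.66 ± 0.23 to 2.79 ± 0.30 FPKM (SD, n = 5 each). Dtx2 fell from 11.1 ± 0.34 to 6.63 ± 0.24 FPKM and Numb, an inhibitor of Notch, from 10.2 ± 0.57 to 6.10 ± 0.35 FPKM.

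All 6 tested coactivator genes were called, 2 higher and 4 lower, which is near the background of 86.0%. The acetyltransferase genes Kat2b and Kat2a rose, from 6.68 ± 0.68 to 15.6 ± 0.65 FPKM and from 28.1 ± 0.53 to 54.96 ± 2.6 FPKM, while Crebbp fell from 10.9 ± 1.1 to 5.17 ± 0.31 FPKM and Ep300 from 26.3 ± 2.1 to 13.5 ± 0.75 FPKM (SD, n = 5 each). Maml1, the Mastermind gene above the level limit, fell from 20.1 to 13.3 FPKM. These acetyltransferases serve many other factors.

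Of 11 tested corepressor genes 3 rose, 6 fell and 2 were not called, so that 81.8% were called against 86.0% of all tested genes. Hdac1, a histone deacetylase gene, rose from 48.3 ± 1.7 to 139.8 ± 4.0 FPKM (SD, n = 5 each), whereas its relative Hdac2 was not called at 90.04 ± 4.7 and 88.03 ± 1.9 FPKM. Ctbp1 rose from 38.4 to 67.0 FPKM. Cir1, named for its binding to RBPJ, fell from 22.9 ± 0.40 to 10.3 ± 0.47 FPKM (SD, n = 5 each), the largest fall of the list, and Tle3 from 27.4 to 15.8 FPKM.

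Of the other ligands and targets, Hes6 alone passed the level limit. None of Dll3, Dll4, Dlk1 and Dlk2 reached it, and the highest, Dll3, reached at most 0.0717 FPKM. Hes6, which is known to oppose Hes1, was thus the 1 tested gene of 8 further Hes, Hey and target genes. It was called lower (4.91 ± 0.24 and 4.41 ± 0.29 FPKM, SD, n = 5 each, limma adjusted p = 0.0216), with overlapping libraries, and the call was lost without MC38 replicate 5 (adjusted p = 0.0611) and without MC38.T4 replicate 3 (adjusted p = 0.0646).

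**Figure D4:**
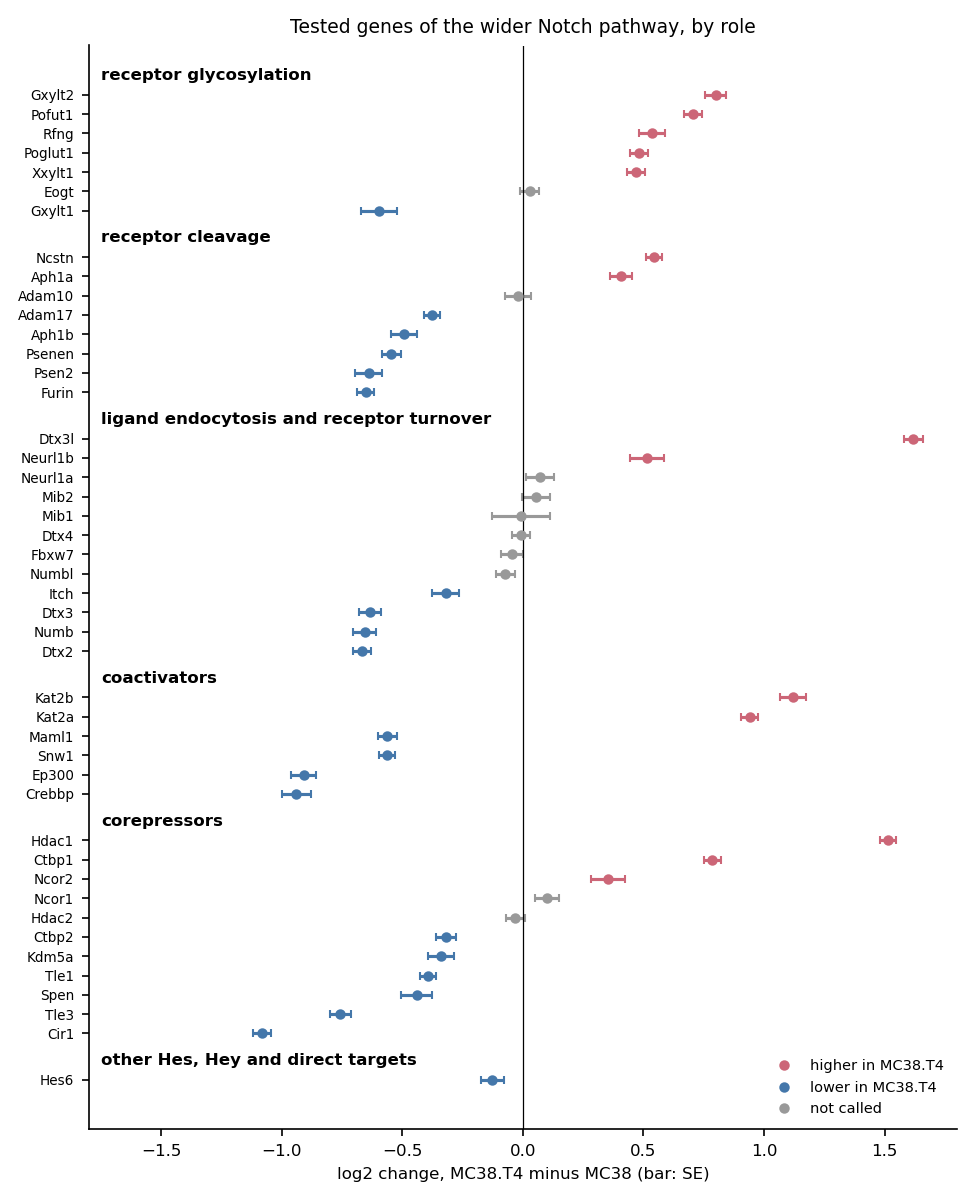
Log2 change (MC38.T4 minus MC38) of the 45 tested genes of the wider pathway, grouped by role and sorted within a role, with SE as bars; red genes were called higher, blue genes lower and grey genes not called. The changes run from -1.08 (Cir1) to 1.62 (Dtx3l), and the 4 roles with 7 or more tested genes each hold both rises and falls.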

How the data were processed

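The authors deposited 1 table of FPKM with 1 column for each library, per the file name and header; its columns were matched to samples by the library names in the labels. Per the labels' protocols, libraries were made from polyA RNA with a TruSeq stranded kit. The submitters' processing notes name GRCm39 and DESeq2, with no role; the aligner, counter, annotation and strand setting used are not given in these sources. No count test was run, because FPKM are not counts.

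Values were tested as log2(FPKM + 1) with limma 3.58.1 in R 4.3.3 (trend and robust moderation, group term only, two-sided). The filter kept genes at 1 FPKM or more in 5 or more libraries. Genes under the filter are reported from a fit of all 26597 genes above 0 in any library. Fold changes on this scale understate changes of low genes. The code was tested on simulated data. Exact tests used SciPy 1.17.1, tables pandas 2.3.3 and figures matplotlib 3.10.9, under Python 3.11.15.

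The 10 genes, the lists and the tests were chosen with earlier results of these data known. Named were all 10 genes, up to 2 called rises and 2 called falls of each role list or its most abundant gene where none was called, and the 3 genes most like the tested gene with the largest change; others were named after their values were seen. A single gene of the wider pathway lists is not reported here. The alternatives tried were quantile normalization, equal medians, TPM rescaling, a pseudocount of 0.1, a filter at 5 FPKM or none, plain eBayes, a replicate block and leaving out each library, and, chosen after seeing the data, leaving out MC38 replicate 1 and MC38.T4 replicate 4 together. Promoter windows are RefSeq's, in build GRCm38.p6, which is not the authors' build.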

Additional observations from a re-analysis of the deposited data

Results flagged for a closer look

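In 62 groups of 5 libraries (31 named genes in 2 lines), 4 held a library whose gap to the nearest other exceeded 0.71 of the group's range; chance gives about 1 in 20 groups. Hey1 stood at 0.387 FPKM in MC38 replicate 3, against 0.189 to 0.228 in the other MC38 libraries, and is the only such value among the 10 Notch genes. MC38 replicate 1 was high for Gxylt1 at 49.5 FPKM (others 35.4 to 38.7) and for Kat2b at 7.87 FPKM (others 6.22 to 6.57). Crebbp was low in MC38.T4 replicate 3, at 4.63 FPKM (others 5.19 to 5.39).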

How the results depend on the processing

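The calls and directions of Notch1, Notch2, Jag1, Hes1 and Rbpj were the same under all alternatives in which each was tested; with a minimum FPKM of 5, Notch1 was not tested. The number of the 10 genes called was 5 in all filtered alternatives but that one (4), and 7 with no filter. Leaving out 1 library gave 2 to 3 genes changed at least 2-fold. Of the wider pathway genes, 32 to 44 were called over all alternatives, against 35. Libraries of the same replicate number showed no clear shared deviation: the correlation of same-numbered deviations ran from -0.129 to 0.142. Of 5 MC38 libraries, 2 correlated best with their own number. These correlations cannot tell whether libraries of the same number were prepared together. With the replicate block 9534 genes were called, against 9555, with 5 of the Notch genes and 35 of the pathway genes, and Notch1 had an adjusted p of 0.00054; no call of the 10 genes changed. Notch3 changed sign when single libraries were left out, with log2 differences from -0.0028 to 0.0022, and was called lower after a shift to equal medians (-0.029, adjusted p = 0.0137), a shift that also moves values listed at 0; Dll3 was called lower there too (-0.056, adjusted p = 0.00828). Values under about 0.4 FPKM rest on few fragments, which limits Notch3, Notch4, Jag2, Dll1 and Hey1.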

Other observations

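Several further pathway genes below the level limit differed between the lines in the fit without a limit, in which 47.8% of 26597 genes were called. They were chosen after their values were seen. Dtx1, Aph1c and Dll4, all scarce, were lower in MC38.T4 (limma adjusted p = 0.0013, 0.0078 and 0.0297), and the libraries overlapped for Dll4. Of the fringe genes, Lfng stood at 0.174 ± 0.061 FPKM for MC38 against 0.614 ± 0.10 FPKM for MC38.T4 (SD, n = 5 each; limma adjusted p = 1.5e-05). Mfng was listed at 0 in 4 MC38 libraries and at 0.0144 in the fifth, and stood between 0.157 and 0.302 FPKM in MC38.T4 (limma adjusted p = 2.4e-05). The Mastermind genes Maml2 and Maml3 were higher in MC38.T4, at 0.574 ± 0.15 and 1.04 ± 0.15 FPKM and at 0.399 ± 0.066 and 0.846 ± 0.070 FPKM (SD, n = 5 each; limma adjusted p = 0.0011 and 8.1e-06), the direction opposite to that of the more abundant Maml1.

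Nrarp, a feedback inhibitor that is a direct Notch target, was lower in MC38.T4, at 0.629 ± 0.12 and 0.354 ± 0.092 FPKM (SD, n = 5 each; limma adjusted p = 0.0039), with no overlap between the lines. Hes7 stood at 0.180 ± 0.082 and 0.0658 ± 0.025 FPKM (SD, n = 5 each, limma adjusted p = 0.0211), with overlapping libraries. The direction of both is opposite to that of Hes1. Heyl was listed at 0 in all 10 libraries, and Hes5 in all 5 MC38 libraries and 3 of the MC38.T4 libraries.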
